A study of Mus musculus with 16 samples.

Results

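The genes described here are the nuclear genes for the subunits of respiratory complexes II to V: succinate dehydrogenase, the cytochrome bc1 complex, cytochrome c oxidase and ATP synthase. Members were taken by symbol (Sdha, Sdhb, Sdhc, Sdhd, Cyc1, and symbols beginning with Uqcr, Cox4i, Cox5, Cox6, Cox7, Cox8 or Atp5), which matched 52 of the 17370 genes in the deposited table. After 5 pseudogenes were left out, 47 members remained, 4 of complex II, 9 of complex III, 17 of complex IV and 17 of complex V. RNA came from the mouse quadriceps, which straightens the knee, in 16 libraries of 4 groups of 4. The anterior cruciate ligament (ACL) of 1 knee had been transected, and for the following 7 days the animals drank water with either an inhibitor of CSF1-R, the receptor that macrophages need to survive, at 40 mg/kg, or 0.5% sucrose as placebo. The groups are healthy placebo, injured placebo, healthy inhibitor and injured inhibitor, and libraries are named by group and by the replicate number of their label. Strain, sex and age are not given in the labels, and the series' text speaks of muscle before and after transection where the titles give healthy and transected. A shared stem of the library names joins 1 healthy and 1 injured quadriceps, which was read as 8 animals, so the healthy muscle came from animals whose other knee was injured and which received the same drink.

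These complexes sit in the inner mitochondrial membrane. Complex II passes electrons from succinate to ubiquinone, complex III moves them from ubiquinol to cytochrome c, complex IV hands them to oxygen, and complex V uses the proton gradient built by the chain to make ATP. All subunits of complex II are encoded in the nucleus, whereas the other complexes also hold subunits encoded by mitochondrial DNA. In skeletal muscle the complexes are most abundant in oxidative fibres, and muscle and heart replace several complex IV subunits by forms of their own.

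Library totals were 20.1 M to 27.1 M counts, and the members took 1.12% to 1.51% of them. Levels are counts-per-million values (CPM) on library sizes scaled by the trimmed mean of M values (TMM), and 3 counts corresponded to 0.111 to 0.149 CPM, a floor for counting error only. In every library the muscle markers were abundant, with Acta1, the skeletal alpha-actin, at 23752 to 37222 CPM. Levels of Prg4, the lubricin of joint surfaces, set 4 libraries apart: healthy placebo 4 with 251 CPM, injured placebo 2 with 220.3, injured placebo 3 with 286 and healthy inhibitor 1 with 169, whereas the other 12 had 3.97 to 19.5 CPM. Results of the members are given with and without these 4, a choice made after seeing the data. Only injured placebo 1 and 4 are then left in the injured placebo group. The labels call the samples biological replicates and say no more, so a p-value covers the spread between samples, which may in part be technical. In RNA of whole muscle, fewer fibres of a type and less RNA per fibre cannot be told apart.

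Levels of different members were compared only per kilobase of principal transcript (GENCODE M21). Atp5b, the catalytic beta subunit of ATP synthase, was highest at 1009 ± 146 CPM per kilobase (SD over 16 libraries). Next came Cox6a2, the muscle form of subunit 6A of complex IV, at 862 ± 158, Atp5a1, the alpha subunit, at 734 ± 93.3, and Cox6c at 588 ± 120.0. In the middle stood Cyc1, cytochrome c1, at 202 ± 28.3 and Sdha, the catalytic flavoprotein of complex II, at 235 ± 32.9. The low end held Cox6a1 and Cox8a, the forms of 2 complex IV subunits made in most tissues, at 33.4 ± 9.53 and 28.1 ± 8.01 CPM per kilobase. Atp5g2, Cox6c2, Cox4i2 and Cox6b2 lay lower still, at 3.44, 3.38, 1.92 and 0.36. Cox6c2 has no protein-coding transcript in the annotation, and Cox6b2, a testis form, lay between 0 and 0.80 CPM and was the only member removed by the filter on low counts, which left 46 members tested. Values per kilobase of Atp5g1 and Sdhc rest on principal transcripts of 4715 and 3171 bases, the longest of the set. Exons of another gene on the other strand overlap Uqcrb (Gm10767), Uqcrc2 (Pdzd9), Cox4i1 (Emc8), Cox6c (Vps13b), Atp5a1 (Haus1), Atp5j (Gabpa) and Atp5l (Gm30934), and such reads cannot be told apart unless the counting used strand.

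Within a library most members moved together. The median of the centred log2(CPM + 0.5) values of the 46 tested members, used below as a score, was -0.03 ± 0.17 in healthy placebo, -0.14 ± 0.09 in injured placebo, 0.05 ± 0.14 in healthy inhibitor and 0.12 ± 0.18 in injured inhibitor (SD, n = 4). By library, the score was -0.09, 0.00, 0.18 and -0.22 in healthy placebo and -0.12, -0.26, -0.10 and -0.07 in injured placebo. In healthy inhibitor the score was 0.23, -0.07, 0.10 and -0.06, and in injured inhibitor 0.29, 0.26, 0.04 and -0.09. Injured placebo libraries were thus all below 0, and 3 of 4 injured inhibitor libraries were above 0, while injured inhibitor 4 lay inside the range of injured placebo.

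**Figure D1:**
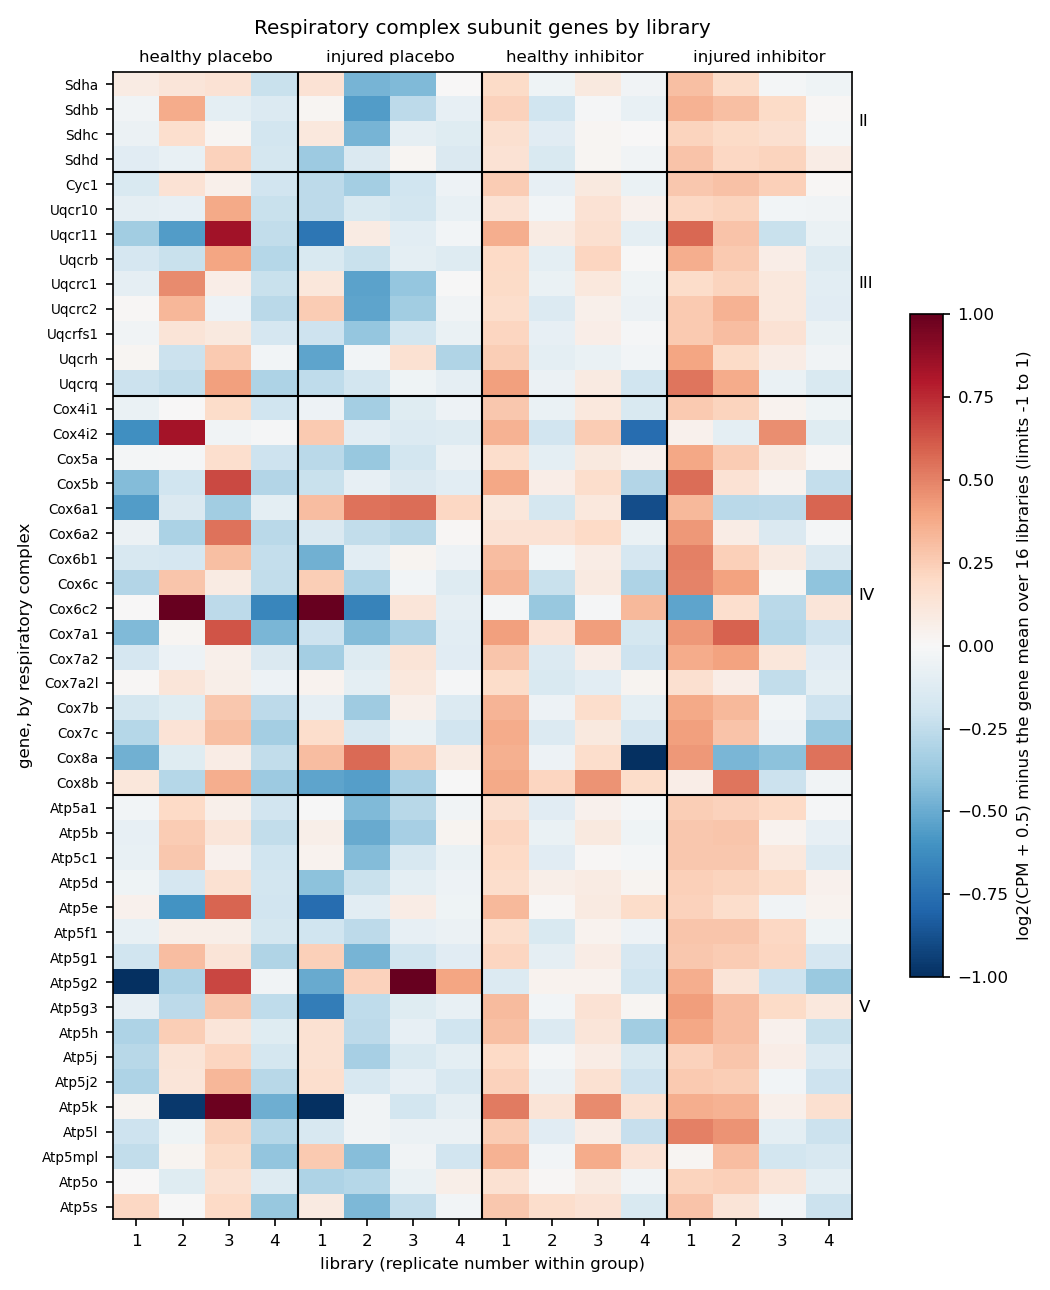
Centred log2(CPM + 0.5) of the 46 tested subunit genes (rows, by complex) in 16 libraries (columns, by group and replicate); the colour scale is clipped at -1 and 1. Most rows share their colour within a library, while Cox6a1, Cox8a and Cox6c2 follow other patterns. Injured placebo 2 and healthy placebo 4 are low, and injured inhibitor 1 and 2, healthy inhibitor 1 and healthy placebo 3 are high.

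Likeness among members was measured as Pearson's r of log2 values over the 16 libraries, a description only, since all values share libraries, scaling and groups. Against the mean of the other members, r reached 0.96 for Cox4i1, 0.95 for Cox7b and 0.93 for Uqcrq. It was lowest for Cox6a1 (-0.09), Cox6c2 (-0.08), Cox8a (0.09), Atp5g2 (0.24) and Cox4i2 (0.30). Of these 5, Cox6c2, Atp5g2 and Cox4i2 had mean levels under 2 CPM, whereas Cox6a1 and Cox8a had mean counts of 449.6 and 365 a library. The median r between pairs of members was 0.67 within complex II, 0.72 within complex III, 0.40 within complex IV and 0.60 within complex V, against 0.71 between members of complexes II and III. Among 8303 other genes (mean log2 CPM at least 3), those most like the mean of the members were Mcee, an enzyme of propionate breakdown (r = 0.96), and Ndufb9 (0.93), Ndufa5 (0.91) and Ndufb8 (0.90), subunits of complex I. Gm10874, Gm4459, Riox2, Ago4, Lynx1 and Etfb, a subunit of the electron transfer flavoprotein, completed the first 10, with r from 0.88 to 0.92.

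The injured and healthy quadriceps of placebo animals were compared first, which asks what the ligament injury did to the muscle without the drug. Of the 46 tested members 41 had a log2 difference below 0, against 48.9% of all genes tested, with a median of -0.13, or a change of -8.57%, beside 0.01 over all genes. All 4 members of complex II (median -0.16) and all 9 of complex III (-0.18) lay below 0, as did 13 of 16 of complex IV (-0.08) and 15 of 17 of complex V (-0.13). The 5 members above 0, against 51.1% of all genes, were Cox6a1, Cox8a, Cox6c2, Atp5g2 and Atp5mpl. No gene of the table passed an adjusted p of 0.05 by edgeR (1116 genes, or 7.24%, at an unadjusted p under 0.05), DESeq2 called 2 genes (0.013%) and limma voom with quality weights none, and no member was among them. Of the members 1, or 2.17%, reached an unadjusted p under 0.05, and that was Cox6a1, which lay above 0. With the animal as a block Atp5g2, a c-ring gene with a mean count of 35.6 a library, joined it, at 0.68 ± 0.31 (SE), against 5.76% of all genes.

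Cox6a1 was also 1 of 2 members, the other being Cox8a, whose groups did not overlap with the injured group higher, against 0.87% of all genes, and none did so in the lower direction, against 0.681%. By animal, the member score of injured minus healthy quadriceps was -0.03, -0.26, -0.28 and 0.15, with 27, 13, 6 and 43 members higher on the injured side in animals 1 to 4. The lower scores were thus those of animals 2 and 3, and animal 4 went the other way. Skeletal muscle markers differed between the limbs of the same animals by -0.40, -0.10, -0.45 and 0.18, and macrophage markers by 1.96, 3.31, 3.91 and -2.06. All 14 macrophage markers had positive log2 differences (median 1.69), with summed levels of 28.0 to 485 CPM in healthy and 103 to 930.1 CPM in injured placebo libraries. The highest sums were those of healthy placebo 4 (485 CPM) and injured placebo 2 and 3 (930.1 and 847 CPM), all high in Prg4. Adipocyte markers were higher for 7 of 7 (median 0.79), joint markers for 6 of 8 (0.68), fibroblast markers for 7 of 8 (0.49) and Schwann cell markers for 4 of 6 (0.09), and endothelial markers lower for 6 of 7 (-0.08). The part of these markers in the result was not tested. Without healthy placebo 3 the median over members was -0.04 and that of complex IV turned to 0.02, and without healthy placebo 4 the median over members was -0.20. Without the 4 libraries high in Prg4 it stayed at -0.13, with 40 of 46 members below 0 and 2 at an unadjusted p under 0.05, against 3.93% of all genes.

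The injured and healthy quadriceps of animals given the inhibitor were compared next. Of 46 members 37 had a log2 difference above 0, against 51.0% of all genes, with a median of 0.09 beside 0.00; the other 9 lay below 0, against 49.0%. By complex the medians were 0.16, 0.12, 0.06 and 0.09 for II, III, IV and V. None reached an unadjusted p under 0.05 by edgeR, against 1.31% of all genes (202 genes, with 225 by DESeq2), and none had groups that did not overlap, against 1.13% of genes higher and 1.12% lower. DESeq2 called 1 gene (0.00649%), edgeR and limma voom called none, and no member was among them. With the animal as a block Sdhd reached an unadjusted p under 0.05, at 0.20 ± 0.09 (SE), against 1.4% of all genes. By animal the score of injured minus healthy quadriceps was 0.06, 0.32, -0.06 and -0.03, with 37, 42, 17 and 23 members higher on the injured side, so that animal 2 had the widest difference. Leaving out 1 library gave medians from 0.03 (without injured inhibitor 1) to 0.16 (without healthy inhibitor 1), with 0.04 without healthy inhibitor 4, 0.05 without injured inhibitor 2 and 0.16 without injured inhibitor 4. Without the 4 libraries high in Prg4 the median was 0.16, and 4 members reached an unadjusted p under 0.05, against 3.41% of all genes. Of the 14 macrophage markers 7 were higher in injured muscle (median 0.00), and of 8 joint markers 1 was (median -0.85). Slow-fibre genes were higher for 10 of 10 (median 0.69), and fast-fibre genes lower for 10 of 11 (-0.23). Skeletal muscle markers were lower for 5 of 9 (-0.19). In each of these 3 lists 0 genes reached an unadjusted p under 0.05 by edgeR. The part of all these markers was not tested.

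The drug was then compared with placebo in injured quadriceps, the comparison in which the members differed most. Of 46 members 41 had higher levels with the inhibitor, against 46.9% of all genes tested, and the median log2 difference was 0.28, or 21.7% higher, beside -0.02 over all genes. All 4 members of complex II (median 0.31), all 9 of complex III (0.32), 12 of 16 of complex IV (0.26) and 16 of 17 of complex V (0.27) lay above 0. The 5 members below 0, against 53.1% of all genes, were Atp5g2, Cox6a1, Cox6c2, Cox7a2l and Cox8a. An unadjusted p under 0.05 was reached by 19 members, all of them above 0, which is 41.3% of those tested against 14.9% of all genes. These were Sdhb, Sdhc and Sdhd of complex II, Cyc1, Uqcr10, Uqcrb, Uqcrfs1 and Uqcrh of complex III, Cox4i1, Cox5a, Cox6b1, Cox7a2 and Cox8b of complex IV, and Atp5a1, Atp5c1, Atp5d, Atp5f1, Atp5g3 and Atp5o of complex V. In 9 members (19.6%, against 2.77% of all genes) every injured inhibitor library lay above every injured placebo library: Sdhd, Cyc1, Uqcr10, Cox4i1, Cox5a, Atp5d, Atp5f1, Atp5g3 and Atp5k. None lay wholly below, against 2.87% of all genes.

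None of these differences passed the adjusted threshold by edgeR's quasi-likelihood test, in which the smallest adjusted p of a member was 0.18 (Cyc1). DESeq2 called 256 genes, or 1.66% of those tested, and 6 members, Cyc1, Uqcrfs1, Cox5a, Atp5d, Atp5f1 and Atp5g3. Limma voom with quality weights called 1229 genes (7.97%) and 10 members, the same 6 with Sdha, Sdhb, Atp5a1 and Atp5b. With each library left out in turn the median over members stayed between 0.23 and 0.37, and that of complex IV was 0.15 without injured inhibitor 1. Without the 4 libraries high in Prg4, 40 of 46 members were above 0 and the median was 0.22; complexes II and V were at 0.20 and 0.16, and 10 members reached an unadjusted p under 0.05, against 6.33% of all genes. For the 6 members called by DESeq2 the edgeR differences were then 0.37 ± 0.12 (Cyc1, SE), 0.31 ± 0.12 (Uqcrfs1), 0.35 ± 0.13 (Cox5a), 0.40 ± 0.12 (Atp5d), 0.31 ± 0.12 (Atp5f1) and 0.62 ± 0.17 (Atp5g3). Their adjusted p by edgeR lay between 0.57 and 0.75. The further members called by limma voom were then at 0.04 ± 0.12 (Sdha), 0.25 ± 0.14 (Sdhb), 0.19 ± 0.13 (Atp5a1) and 0.09 ± 0.14 (Atp5b).

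Markers of other cells differed in the same comparison. All 14 macrophage markers were lower with the inhibitor, with a median log2 difference of -2.63, each at an unadjusted p under 0.05 by edgeR. Their summed level was 149, 930.1, 847 and 103 CPM in injured placebo 1 to 4 and 54.8 to 135 CPM in injured inhibitor libraries. The high sums were thus those of injured placebo 2 and 3, both high in Prg4. Marker differences without those libraries are not given. Csf1r itself gave -2.10 ± 0.81 (SE). It was at 16.4, 63.8, 60.0 and 10.4 CPM in injured placebo and at 9.51, 6.03, 11.6 and 7.85 CPM in injured inhibitor. Of the macrophage markers Aif1 was at 0 in 2 of the 16 libraries. All 8 tested markers of joint lining and cartilage were lower (median -1.38), with sums of 47.9 to 492 and 62.5 to 92.9 CPM; in this list Acan was at 0 in 11 libraries, Col10a1 in 10, Matn3 in 5, Col2a1 in 2 and Col9a1 in 1. Markers of fibroblasts were lower for 8 of 8 (median -0.83), of adipocytes higher for 6 of 7 (0.30), of endothelium higher for 5 of 7 (0.17) and of Schwann cells lower for 5 of 6 (-0.14). Fibroblast sums were 624, 3930, 2547 and 671 CPM in injured placebo 1 to 4 and 570 to 1016 CPM in injured inhibitor libraries. The skeletal muscle markers were Acta1, Ckm, Mb, Myh1, Myh2, Myh4, Tnnt3, Pvalb and Des, of which 4 of 9 also stand in the fast-fibre list below. They had a median of 0.05 (7 of 9 higher), with a range from -0.14 to 1.07. By edgeR 2 were at an unadjusted p under 0.05, against 14.9% of all genes. The highest lay outside the fast-fibre list, which ended at 0.81. Of the markers outside that list, Mb ran from 774 to 2638 CPM and Myh2 from 1045 to 4754 CPM over all libraries. Acta1, Ckm and Des had narrower ranges relative to their level. Their sums were 89703 to 150320.0 CPM in injured placebo and 116765 to 132613 CPM in injured inhibitor. The part of these markers in the differences of the members was not tested.

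In healthy quadriceps the inhibitor was compared with placebo in the same way. There 39 of 46 members lay above 0, against 46.0% of all genes, with 7 below 0, against 54.0%, but the median was 0.07 beside -0.02, and no member reached an unadjusted p under 0.05, against 3.34% of all genes. The complex medians were 0.02, 0.06, 0.09 and 0.05 from II to V. No member had groups that did not overlap, against 0.96% of genes higher and 1.59% lower. Among the tools, edgeR (514 genes at an unadjusted p under 0.05) and limma voom called no gene, and DESeq2 called 11 (0.0714%), none of them a member. This median depended on single libraries: it was -0.02 when healthy inhibitor 1 was left out, 0.00 when healthy placebo 4 was, 0.03 when healthy placebo 1 was and 0.04 when healthy inhibitor 3 was. Leaving out healthy placebo 3 gave 0.14 and leaving out healthy inhibitor 4 gave 0.12. Without the 4 libraries high in Prg4 it was -0.07, with 34 of 46 members below 0 and no member at an unadjusted p under 0.05, against 3.24% of all genes. Here 13 of 14 macrophage markers were lower with the inhibitor (median -0.86), with summed levels of 28.0 to 485 CPM with placebo and 48.1 to 146 CPM with inhibitor. The sums of 485 and 146 CPM were those of healthy placebo 4 and healthy inhibitor 1, both high in Prg4. Of the slow-fibre genes 10 of 10 were higher (0.83), and the part of these markers was not tested.

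The difference between the injury effects with inhibitor and with placebo tests whether injury acted on these genes unequally in the 2 treatments. It was above 0 in 41 of 46 members, against 49.5% of all genes, with a median of 0.22; the other 5 lay below 0, against 50.5%. The medians of complexes II, III, IV and V were 0.29, 0.30, 0.18 and 0.22. An unadjusted p under 0.05 was found for 5 members, or 10.9% against 2.74% of all genes, namely Sdhb (0.47 ± 0.20, SE), Cox5a (0.34 ± 0.15), Uqcrfs1 (0.34 ± 0.15), Sdhd (0.33 ± 0.15) and Cyc1 (0.33 ± 0.15), each with an adjusted p = 0.998 by edgeR. No gene was called by edgeR, DESeq2 or limma voom (423 genes at an unadjusted p under 0.05 by edgeR and 492 by DESeq2). With the animal as a block, 1 member, Sdhd, kept an unadjusted p under 0.05 (0.33 ± 0.12), against 2.02% of all genes. Without healthy placebo 3 the median over members was 0.11 and that of complex IV was -0.02. Without the 4 libraries high in Prg4 the median was 0.28, and 9 members reached an unadjusted p under 0.05, against 2.47% of all genes. In the same difference, macrophage markers were below 0 for 14 of 14 (median -1.83), joint markers for 7 of 8 (-1.22), fibroblast markers for 7 of 8 (-0.49), adipocyte markers for 5 of 7 (-0.35) and Schwann cell markers for 6 of 6 (-0.29), and endothelial markers above 0 for 6 of 7 (0.17); their part was not tested.

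**Figure D2:**
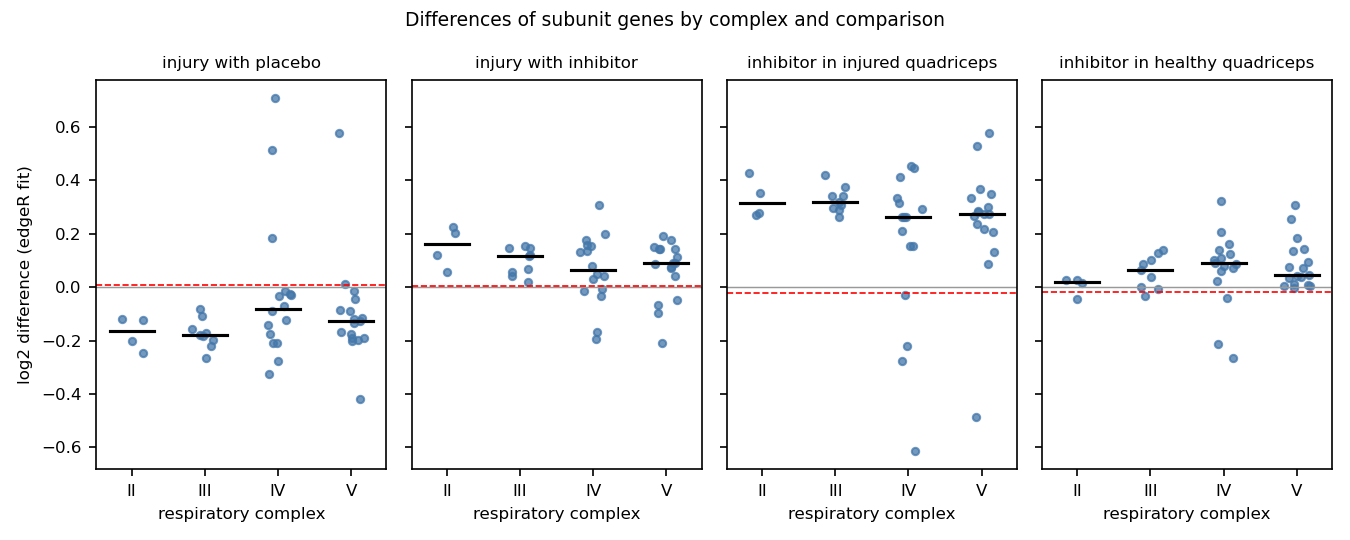
Log2 differences of the 46 tested subunit genes in 4 comparisons, 1 point per gene, by complex; black bars are the complex medians and the dashed red line is the median over all 15411 genes tested. Medians lie below the red line for injury with placebo (-0.08 to -0.18) and above it for the inhibitor in injured quadriceps (0.26 to 0.32).

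Complex II is also an enzyme of the tricarboxylic acid cycle. Sdhd (ENSMUSG00000000171; chromosome 9, 50596357 to 50603812) and Sdhc (ENSMUSG00000058076; chromosome 1, 171127165 to 171150603) encode the membrane anchors that bind ubiquinone, and coordinates here and below are on GRCm38. Sdhd was at 157, 161, 198 and 149.6 CPM in healthy and at 132, 153, 172 and 153 CPM in injured quadriceps with placebo. Given inhibitor, Sdhd was at 188, 152, 172 and 166 CPM in healthy and at 206, 195, 198 and 178 CPM in injured quadriceps. For Sdhd the injured libraries of the 2 treatments did not overlap, at a log2 difference of 0.35 ± 0.11 (SE; adjusted p = 0.22 by edgeR), while healthy placebo 3 reached 198 CPM. With placebo, Sdhc was at 239, 279, 252 and 218 CPM in healthy and at 267, 180.2, 234 and 228 CPM in injured quadriceps. With inhibitor, Sdhc was at 278, 229.8, 251 and 249 CPM in healthy and at 289, 283, 278 and 245 CPM in injured quadriceps. Injured placebo 2 was the lowest Sdhc library, and the treatments overlapped in injured muscle (0.27 ± 0.11).

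Sdha carries the flavin that oxidises succinate, and Sdhb (ENSMUSG00000009863; chromosome 4, 140961203 to 140979193) carries the iron-sulfur clusters. Sdha was at 713, 735, 746 and 580.3 CPM in healthy and at 749, 489, 497 and 679 CPM in injured quadriceps with placebo. Given inhibitor, Sdha was at 771, 654, 722 and 659.5 CPM in healthy and at 833, 767, 665 and 655 CPM in injured quadriceps. The low Sdha values of injured muscle were those of injured placebo 2 and 3, both high in Prg4. With placebo, Sdhb was at 297, 393, 284 and 277 CPM in healthy and at 308, 206, 253 and 287 CPM in injured quadriceps. With inhibitor, Sdhb was at 357, 265, 302 and 289 CPM in healthy and at 387, 375, 347 and 306 CPM in injured quadriceps. In the injured groups Sdhb differed by 0.43 ± 0.14 (adjusted p = 0.23), with injured inhibitor 4 just below injured placebo 1. Without the libraries high in Prg4 it was 0.25 ± 0.14, whereas Sdhd was 0.45 ± 0.12.

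In complex III, Cyc1 (ENSMUSG00000022551; chromosome 15, 76343523 to 76346260) encodes cytochrome c1, which reduces cytochrome c, and Uqcrfs1 encodes the Rieske iron-sulfur protein. Cyc1 was at 273, 336, 315 and 266 CPM in healthy and at 253, 240.4, 264 and 293 CPM in injured quadriceps with placebo. Given inhibitor, Cyc1 was at 362, 287, 325 and 290.0 CPM in healthy and at 367, 373, 359 and 306 CPM in injured quadriceps. Every injured inhibitor library exceeded every injured placebo library for Cyc1, with a log2 difference of 0.42 ± 0.11 (adjusted p = 0.18), the smallest p of the members in this comparison. With placebo, Uqcrfs1 was at 404, 452, 443 and 368 CPM in healthy and at 358, 317, 364 and 394 CPM in injured quadriceps. With inhibitor, Uqcrfs1 was at 479.8, 390.4, 433 and 410.3 CPM in healthy and at 495, 512, 458 and 394 CPM in injured quadriceps. Uqcrfs1 differed by 0.38 ± 0.11 between the injured groups (adjusted p = 0.22), and its groups met only at injured inhibitor 4 and injured placebo 4, both at 394 CPM.

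Uqcrc1 and Uqcrc2 are the large core proteins that face the mitochondrial matrix. Uqcrc1 was at 490.2, 723, 547 and 447 CPM in healthy and at 562, 358, 398 and 518 CPM in injured quadriceps with placebo. Given inhibitor, Uqcrc1 was at 594, 497, 561 and 504 CPM in healthy and at 592, 606, 559.8 and 485 CPM in injured quadriceps. The highest Uqcrc1 library was healthy placebo 2. With placebo, Uqcrc2 was at 329.5, 410.4, 314 and 270.2 CPM in healthy and at 388, 227, 257 and 318 CPM in injured quadriceps. With inhibitor, Uqcrc2 was at 369, 296, 338 and 314 CPM in healthy and at 392, 414, 352 and 301 CPM in injured quadriceps. Both genes were low in injured placebo 2 and 3 and high in healthy placebo 2, and their injured groups overlapped, at 0.29 ± 0.16 and 0.29 ± 0.16. Without the libraries high in Prg4 these differences were 0.06 ± 0.15 and 0.05 ± 0.15. Of the small subunits, Uqcrb had the smallest p of complex III for the inhibitor in healthy muscle, at 0.13 ± 0.14 (adjusted p = 1.00). With placebo, Uqcrb was at 64.8, 62.4, 96.2 and 59.7 CPM in healthy and at 65.5, 62.3, 67.9 and 66.7 CPM in injured quadriceps. With inhibitor, Uqcrb was at 83.7, 68.0, 84.8 and 72.7 CPM in healthy and at 93.9, 87.5, 76.3 and 66.7 CPM in injured quadriceps. These Uqcrb groups overlapped in both limbs. The hinge protein Uqcrh (100.5 to 191 CPM) and the accessory Uqcr10 (114 to 178 CPM), Uqcr11 (51.1 to 152 CPM) and Uqcrq (179 to 321 CPM) gave log2 differences of 0.26 to 0.34 with the inhibitor in injured muscle.

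**Figure D3:**
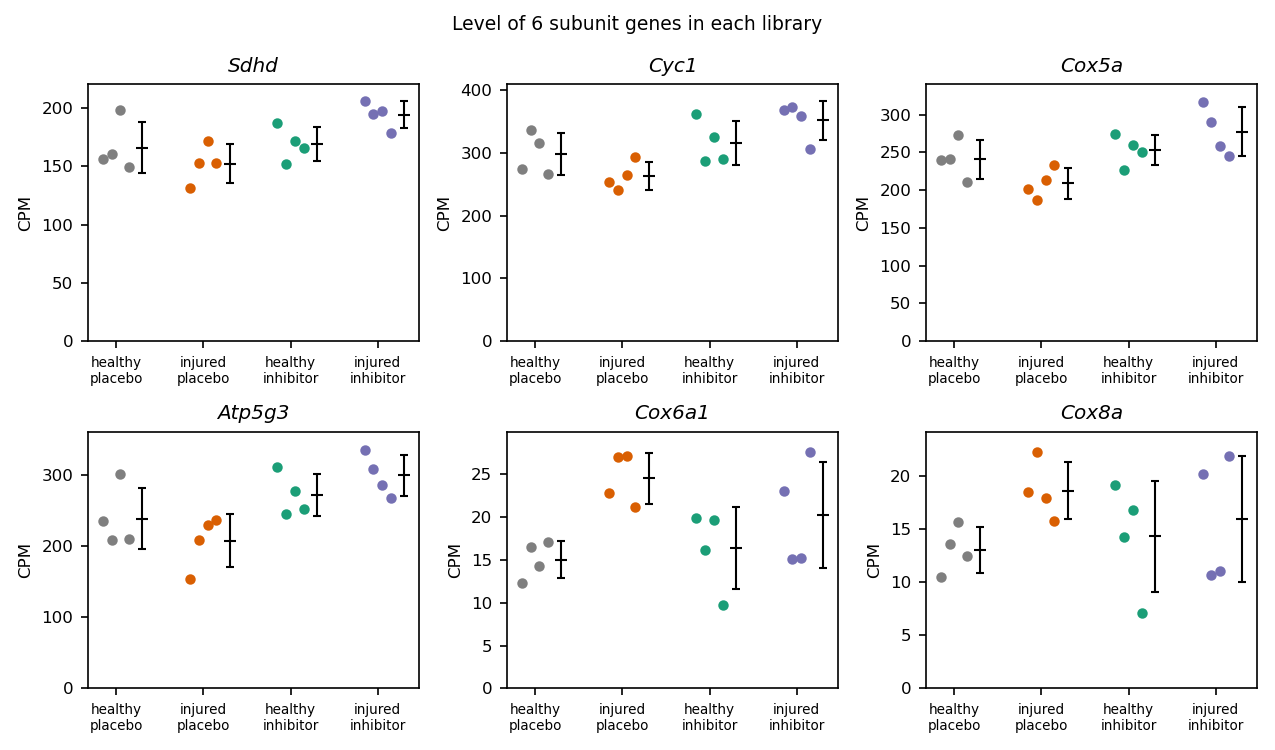
CPM of 6 subunit genes in each library by group (points, replicates 1 to 4 from left to right), with the group mean and SD (bars, n = 4). Sdhd, Cyc1, Cox5a and Atp5g3 are higher in all 4 injured inhibitor libraries than in any injured placebo library, whereas Cox6a1 and Cox8a are higher in injured than in healthy placebo libraries.

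Complex IV members that sit next to the catalytic core were described next. Cox4i1, the largest nuclear subunit, is the one whose pattern was most like the rest. With placebo, Cox4i1 was at 370.1, 389.8, 441 and 337 CPM in healthy and at 375, 307, 358 and 374 CPM in injured quadriceps. With inhibitor, Cox4i1 was at 468, 370.5, 418 and 348 CPM in healthy and at 464, 454, 399 and 377 CPM in injured quadriceps. The injured groups of Cox4i1 did not overlap (0.26 ± 0.12, adjusted p = 0.31). Cox5a (ENSMUSG00000000088; chromosome 9, 57521274 to 57532426) encodes a subunit on the matrix side. Cox5a was at 239.5, 241, 274 and 210.5 CPM in healthy and at 201, 186, 214 and 234 CPM in injured quadriceps with placebo. Given inhibitor, Cox5a was at 275, 227, 260.1 and 251 CPM in healthy and at 317, 290.1, 258 and 245 CPM in injured quadriceps. Every injured inhibitor library lay above the injured placebo range for Cox5a, at 0.41 ± 0.11 (adjusted p = 0.19). Its count was not whole in any library, so its value rests in part on reads assigned by estimate, and its exons overlap Gm26631 on the other strand, whose reads cannot be told apart unless the counting used strand. Cox5b, its zinc-binding neighbour, behaved less evenly. With placebo, Cox5b was at 86.5, 102, 185 and 95.6 CPM in healthy and at 99.9999, 110.2, 106 and 109 CPM in injured quadriceps. With inhibitor, Cox5b was at 153, 122, 132 and 95.2 CPM in healthy and at 172, 129, 119.6 and 99.2 CPM in injured quadriceps. Healthy placebo 3 stood apart for Cox5b, and the injured groups overlapped (0.29 ± 0.22).

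Small subunits around the core were Cox6b1, which faces the intermembrane space, and Cox6c, Cox7b and Cox7a2l, the last of which links complexes III and IV into supercomplexes. Cox6b1 was at 151, 149.995, 208 and 143 CPM in healthy and at 121, 157, 172 and 163 CPM in injured quadriceps with placebo. Given inhibitor, Cox6b1 was at 209, 166, 177 and 150.4 CPM in healthy and at 239.5, 199, 179.7 and 153 CPM in injured quadriceps. Healthy placebo 3 and inhibitor libraries 1 of both limbs were the highest for Cox6b1. With placebo, Cox6c was at 237, 352, 307 and 245 CPM in healthy and at 345, 234, 285 and 266 CPM in injured quadriceps. With inhibitor, Cox6c was at 367, 248, 309 and 234 CPM in healthy and at 411, 384, 294 and 219 CPM in injured quadriceps. Cox6c varied within every group, and its inhibitor difference in injured muscle was 0.21 ± 0.20. Cox7b was at 154, 159, 208 and 144 CPM in healthy and at 162, 135, 179 and 157 CPM in injured quadriceps with placebo. Given inhibitor, Cox7b was at 219.6, 167, 196 and 162 CPM in healthy and at 225, 216, 169.7 and 149.7 CPM in injured quadriceps. Cox7b followed the score of the libraries closely. With placebo, Cox7a2l was at 93.2, 101, 96.5 and 89.2 CPM in healthy and at 94.8, 86.7, 99.5 and 91.8 CPM in injured quadriceps. With inhibitor, Cox7a2l was at 106, 83.3, 86.1 and 94.5 CPM in healthy and at 104, 97.2, 78.2 and 86.5 CPM in injured quadriceps. Cox7a2l had the narrowest range of all 46 tested members, the highest library being 1.35 times the lowest, and its 4 pairwise log2 differences lay between -0.04 and -0.01. Cox7c, at 82.4 to 142 CPM across libraries, gave 0.15 ± 0.18 with the inhibitor in injured muscle, and Cox6c2, at 0.254 to 2.14 CPM, gave -0.61 ± 0.64.

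Several complex IV subunits exist in a form of heart and muscle and a form of most tissues. Cox6a2, Cox7a1 and Cox8b are the muscle forms of Cox6a1, Cox7a2 and Cox8a. Cox6a2 (ENSMUSG00000030785; chromosome 7, 128205435 to 128206387) and Cox6a1 (ENSMUSG00000041697; chromosome 5, 115345642 to 115348981) gave log2 differences of opposite sign for injury with placebo, -0.18 ± 0.17 and 0.71 ± 0.22. Cox6a2 was at 555, 463, 841 and 478 CPM in healthy and at 521, 487, 477 and 583 CPM in injured quadriceps with placebo. Given inhibitor, Cox6a2 was at 638, 637, 664 and 551 CPM in healthy and at 779.6, 608, 522 and 569 CPM in injured quadriceps. Healthy placebo 3 was the highest Cox6a2 library, and the groups overlapped. With placebo, Cox6a1 was at 12.3, 16.5, 14.3 and 17.1 CPM in healthy and at 22.9, 27.0, 27.2 and 21.2 CPM in injured quadriceps. With inhibitor, Cox6a1 was at 19.9, 16.2, 19.7 and 9.69 CPM in healthy and at 23.0, 15.1, 15.2 and 27.7 CPM in injured quadriceps. All 4 injured placebo libraries exceeded the healthy placebo libraries for Cox6a1 (adjusted p = 0.64), and without the 4 libraries high in Prg4 the difference was 0.61 ± 0.30 (adjusted p = 0.98). Injured inhibitor libraries were split, with 2 and 3 near the healthy level and 1 and 4 at the injured placebo level. Counts of Cox6a1 and Cox6a2 were whole in all libraries; exons of Cox6a2 overlap Itgad on the other strand.

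Cox8a and Cox8b repeat this arrangement for the smallest subunit. Cox8b was at 127, 96.7, 152 and 91.4 CPM in healthy and at 81.6, 80.3, 93.8 and 118 CPM in injured quadriceps with placebo. Given inhibitor, Cox8b was at 153, 137, 161 and 134 CPM in healthy and at 123, 171, 101 and 115 CPM in injured quadriceps. For Cox8b, injured placebo 1 to 3 and healthy placebo 2 and 4 were the low libraries. With placebo, Cox8a was at 10.5, 13.6, 15.6 and 12.4 CPM in healthy and at 18.5, 22.2, 17.9 and 15.7 CPM in injured quadriceps. With inhibitor, Cox8a was at 19.1, 14.3, 16.8 and 7.04 CPM in healthy and at 20.2, 10.6, 11.03 and 21.8 CPM in injured quadriceps. Cox8a was above the healthy placebo range in every injured placebo library, the nearest values being 15.64 and 15.74 CPM, at 0.51 ± 0.28 (adjusted p = 0.64). Cox8b differed by -0.32 ± 0.18 with injury under placebo and by 0.45 ± 0.18 with the inhibitor in injured muscle. In injured inhibitor 2 and 3 Cox8a was again low and in 1 and 4 high, the same split as in Cox6a1. Cox7a1 and Cox7a2 did not show it. Cox7a1 was at 72.5, 99.98, 153 and 71.7 CPM in healthy and at 85.1, 72.6, 78.5 and 91.5 CPM in injured quadriceps with placebo. Given inhibitor, Cox7a1 was at 131, 108, 131 and 87.1 CPM in healthy and at 133, 148, 80.8 and 85.04 CPM in injured quadriceps. Healthy placebo 3 and injured inhibitor 2 were the highest Cox7a1 libraries. With placebo, Cox7a2 was at 68.2, 73.9, 79.5 and 69.4 CPM in healthy and at 60.5, 69.9, 84.0 and 70.7 CPM in injured quadriceps. With inhibitor, Cox7a2 was at 92.8, 69.5, 80.3 and 66.4 CPM in healthy and at 99.1, 102, 83.0 and 70.7 CPM in injured quadriceps. For both genes inhibitor libraries 1 of either limb and injured inhibitor 2 were high, and the differences in injured muscle were 0.45 ± 0.24 and 0.31 ± 0.13.

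The log2 ratio of 2 forms of a subunit was tested in 4 pairs and 4 comparisons with 16 two-sided exact permutation tests. In these, 4 against 4 libraries cannot give a p below 0.0286. The tests took all libraries as independent, also in the injury comparisons, where healthy and injured limbs were read as those of the same animals. No paired test of the ratios was run. The Cox6a2 to Cox6a1 ratio was 5.20 ± 0.53 in healthy and 4.37 ± 0.30 in injured placebo (log2, SD, n = 4), and the groups did not overlap. That difference of -0.83 gave the smallest possible exact p = 0.0286, with an adjusted p = 0.457 over the 16 tests. For Cox8b to Cox8a the ratio was 3.10 ± 0.36 and 2.29 ± 0.44, a difference of -0.81 with overlapping groups (exact p = 0.0857). With the inhibitor in injured muscle the 2 ratios were higher by 0.56 (exact p = 0.0857) and 0.72 (exact p = 0.143). Cox7a1 to Cox7a2 differed by -0.17 with injury under placebo and 0.09 with the inhibitor in injured muscle. None of the 16 tests had an adjusted p below 0.457. Per kilobase, Cox6a2 stood between 14.7 and 49.5 times Cox6a1 across libraries.

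**Figure D4:**
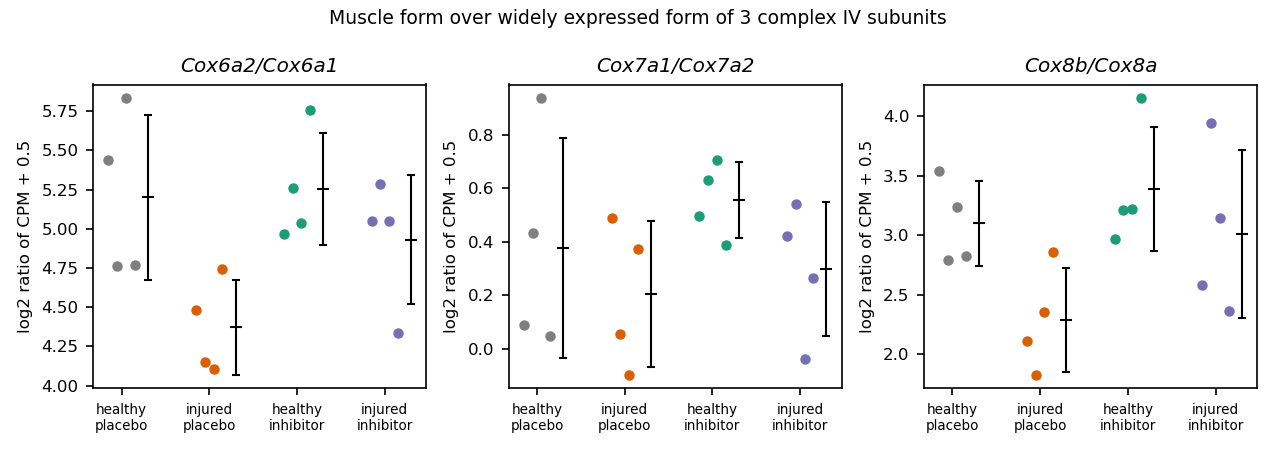
Log2 ratio of the muscle form to the widely expressed form of 3 complex IV subunits in each library by group (points), with the group mean and SD (bars, n = 4); the vertical axes differ between panels and do not start at 0. All 4 injured placebo ratios of Cox6a2 to Cox6a1 lie below the healthy placebo ratios, and those of Cox8b to Cox8a overlap through injured placebo 4.

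Cox4i2 and Cox6b2 are alternative forms of Cox4i1 and Cox6b1, with mean counts of 32.6 and 4.88 a library. Cox4i2 was at 0.701, 2.76, 1.29 and 1.32 CPM in healthy and at 1.70, 1.2, 1.16 and 1.18 CPM in injured quadriceps with placebo. Given inhibitor, Cox4i2 was at 1.83, 1.11, 1.69 and 0.582 CPM in healthy and at 1.39, 1.22, 2.02 and 1.19 CPM in injured quadriceps. No group of Cox4i2 was set apart. With placebo, Cox6b2 was at 0.0389, 0.0452, 0.208 and 0.309 CPM in healthy and at 0.268, 0.800, 0.361 and 0.294 CPM in injured quadriceps. With inhibitor, Cox6b2 was at 0, 0.115, 0.0383 and 0.106 CPM in healthy and at 0.239, 0.159, 0.207 and 0.0424 CPM in injured quadriceps. These Cox6b2 values lie around the floor of 3 counts, and the ratio of Cox4i1 to Cox4i2 differed by at most 0.19 on the log2 scale between groups. Cox6b2 was below 1 CPM in all libraries and at 0 in healthy inhibitor 1, where 3 counts would be 0.136 CPM.

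Because Cox6a1 and Cox8a departed from the other members, the DNA before their start sites was set beside that of Cox8b, the muscle form, and of Atp5g3, whose inhibitor difference is among the largest. Windows of 300 bases (250 before to 50 after the start) came from RefSeq on GRCm38.p6 and were found for 35 members. Both strands were searched for GCATGCGC, the core of the site of NRF1, AAGGTCA, the core of the site of estrogen-related receptors (ERR), CCGGAAG, an ETS site as bound by GABP, ATGGCGG, the YY1 core, and GGGCGG, the GC box. The stretches below end at the base before the annotated gene, run 5′ to 3′ on the gene's minus strand, and carry the matches in capitals.
Atp5g3, chr2:73911327-73911526, minus strand: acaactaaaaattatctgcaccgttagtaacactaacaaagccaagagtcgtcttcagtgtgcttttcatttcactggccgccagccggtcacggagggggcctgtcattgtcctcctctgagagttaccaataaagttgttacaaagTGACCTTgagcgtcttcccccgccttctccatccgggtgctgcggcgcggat
Cox6a1, chr5:115348982-115349158, minus strand: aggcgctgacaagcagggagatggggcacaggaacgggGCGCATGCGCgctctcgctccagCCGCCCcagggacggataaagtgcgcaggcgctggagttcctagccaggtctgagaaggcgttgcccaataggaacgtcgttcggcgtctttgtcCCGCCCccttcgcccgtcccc
Cox8a, chr19:7217617-7217816, minus strand: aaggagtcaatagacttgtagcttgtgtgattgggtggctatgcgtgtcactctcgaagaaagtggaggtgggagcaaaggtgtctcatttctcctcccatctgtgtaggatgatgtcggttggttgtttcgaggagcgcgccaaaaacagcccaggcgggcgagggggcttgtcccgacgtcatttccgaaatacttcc
Cox8b, chr7:140900447-140900646, minus strand: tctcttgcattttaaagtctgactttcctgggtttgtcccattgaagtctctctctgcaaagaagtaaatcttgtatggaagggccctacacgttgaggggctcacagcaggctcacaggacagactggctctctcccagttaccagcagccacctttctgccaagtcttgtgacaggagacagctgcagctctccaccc
The Atp5g3 stretch holds the ERR core on the reverse strand (TGACCTT). The Cox6a1 stretch holds an NRF1 core on both strands, the 2 matches overlapping in GCGCATGCGC, and 2 GC boxes on the reverse strand (CCGCCC). Part of it overlaps an exon of Gm42903 on the other strand. The stretches of Cox8a and Cox8b hold none of these letters. The whole windows of Cox6a1 and Cox8a, which extend past the printed stretches at both ends, hold the ETS letters.

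Over all members with a window, the NRF1 core was present in 7 of 35 (20%), against 3.05% of all 27025 genes with windows of the same length, where a gene counts once if any of its windows holds the letters. The ETS site was present in 12 (34.3%, against 9.93%), the ERR core in 5 (14.3%, against 5.38%), the YY1 core in 2 (5.71%, against 4.69%) and the GC box in 13 (37.1%, against 38.2%). As a share of all 32851 windows the letters were in 2.71%, 8.86%, 4.72%, 4.05% and 35.7%, in the same order. The windows of all genes include those of non-coding genes, and a match is a description of letters, not of binding. The 5 members with an ERR core were Sdhd, Atp5e, Atp5g3, Atp5k and Atp5l. Their log2 differences for the inhibitor in injured muscle were 0.35, 0.28, 0.53, 0.58 and 0.27, beside the median of 0.28 over the members. With the NRF1 core were Sdhb, Uqcr11, Uqcrc1, Cox6a1, Atp5g2, Atp5k and Atp5l, of which Cox6a1 and Atp5g2 lay below 0 in that comparison.

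In complex V the catalytic head is built from Atp5a1, the alpha, and Atp5b, the beta subunit, around Atp5c1, the gamma subunit, which turns inside it. Atp5a1 was at 1765, 2068, 1863 and 1574 CPM in healthy and at 1791, 1326, 1488 and 1761 CPM in injured quadriceps with placebo. Given inhibitor, Atp5a1 was at 2010.3, 1668, 1853 and 1772 CPM in healthy and at 2133, 2116, 2069 and 1782 CPM in injured quadriceps. Injured placebo 2 and 3 were the lowest Atp5a1 libraries, and the injured groups overlapped only by injured placebo 1 (0.35 ± 0.12, adjusted p = 0.23). With placebo, Atp5b was at 1808, 2278, 2078 and 1615 CPM in healthy and at 1994, 1352, 1523 and 1947 CPM in injured quadriceps. With inhibitor, Atp5b was at 2223, 1830.0, 2046 and 1857 CPM in healthy and at 2304, 2314, 1962 and 1807 CPM in injured quadriceps. Atp5b varied in the same way, with 0.30 ± 0.15 between the injured groups. Atp5c1 was at 398, 507, 433 and 366 CPM in healthy and at 431, 310.1, 376 and 402 CPM in injured quadriceps with placebo. Given inhibitor, Atp5c1 was at 482, 388, 424 and 415 CPM in healthy and at 507, 506, 452 and 382 CPM in injured quadriceps. Healthy placebo 2 was level with injured inhibitor 1 and 2 for Atp5c1 (0.28 ± 0.13).

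The central stalk turns with the membrane rotor, and the peripheral stalk holds the head still. Atp5d (ENSMUSG00000003072; chromosome 10, 80138632 to 80145818) encodes the delta subunit of the central stalk. With placebo, Atp5d was at 262, 240.1, 299.5 and 238 CPM in healthy and at 203, 231, 253 and 261 CPM in injured quadriceps. With inhibitor, Atp5d was at 305, 281, 286 and 275 CPM in healthy and at 319, 316, 308 and 279 CPM in injured quadriceps. All injured inhibitor libraries were above injured placebo for Atp5d, at 0.37 ± 0.10 (adjusted p = 0.20), and exons of Cbarp overlap it on the other strand. Atp5f1, subunit b of the peripheral stalk, had the smallest p of complex V for injury with inhibitor, at 0.18 ± 0.10 (adjusted p = 1.00). Atp5f1 was at 397, 433, 435 and 369.6 CPM in healthy and at 363, 348, 393 and 401 CPM in injured quadriceps with placebo. Given inhibitor, Atp5f1 was at 471, 376, 428 and 402 CPM in healthy and at 506, 506, 481 and 404 CPM in injured quadriceps. The injured groups of Atp5f1 did not overlap, with nearest libraries at 401 and 404 CPM (0.33 ± 0.10, adjusted p = 0.22), and Gm42890 and Wdr77 overlap this gene on the other strand. Atp5o, the protein that joins stalk and head, ran from 213 to 311 CPM and gave 0.27 ± 0.11. Atp5h, subunit d of that stalk, ran from 53.3 to 88.8 CPM and gave 0.24 ± 0.16.

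The c-ring that protons turn is made of 1 mature protein encoded by Atp5g1, Atp5g2 and Atp5g3. Of these, Atp5g3 (ENSMUSG00000018770; chromosome 2, 73908447 to 73911326) was the most abundant per length, at 357 CPM per kilobase against 29.4 for Atp5g1 and 3.44 for Atp5g2. With placebo, Atp5g3 was at 236, 209, 301 and 210.2 CPM in healthy and at 155, 209, 230.1 and 238 CPM in injured quadriceps. With inhibitor, Atp5g3 was at 311, 245, 277 and 253 CPM in healthy and at 335, 309, 286 and 269 CPM in injured quadriceps. The injured groups of Atp5g3 were separated, at 0.53 ± 0.14 (adjusted p = 0.20). Its counts were not whole in any library, so its value too rests in part on reads assigned by estimate. Counts of Sdhb, Uqcrc2, Cox5b, Cox6c, Cox7b, Atp5l and Atp5o were likewise not whole in any library. Those of Cyc1, Cox4i1 and Atp5d, among others, were not whole in 93.75% of libraries. Atp5g1 was at 119, 169, 149 and 111 CPM in healthy and at 162, 98.7, 119 and 126 CPM in injured quadriceps with placebo. Given inhibitor, Atp5g1 was at 158, 128, 144 and 121 CPM in healthy and at 165, 163, 159 and 122 CPM in injured quadriceps. Atp5g1 overlapped between all groups, and injured inhibitor 4 stood below the other libraries of its group. With placebo, Atp5g2 was at 0.389, 1.04, 2.54 and 1.37 CPM in healthy and at 0.849, 1.74, 3.33 and 2.01 CPM in injured quadriceps. With inhibitor, Atp5g2 was at 1.24, 1.45, 1.46 and 1.16 CPM in healthy and at 1.96, 1.59, 1.16 and 0.976 CPM in injured quadriceps. Atp5g2 had few counts and scattered 8.55-fold between libraries, and its log2 differences of 0.57 ± 0.47 with injury under placebo and -0.49 ± 0.47 with the inhibitor in injured muscle are opposite in sign to those of the other c-ring genes.

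Among the small subunits of the membrane part, Atp5mpl, the 6.8 kDa proteolipid, had the smallest p of complex V for the inhibitor in healthy muscle (0.31 ± 0.16, adjusted p = 1.00). Atp5mpl was at 34.8, 42.2, 47.2 and 31.3 CPM in healthy and at 49.6, 30.7, 40.2 and 36.1 CPM in injured quadriceps with placebo. Given inhibitor, Atp5mpl was at 52.7, 40.5, 53.7 and 45.6 CPM in healthy and at 42.0, 51.3, 36.4 and 36.9 CPM in injured quadriceps. Its groups overlapped in both limbs. Atp5k, subunit e, ranged 5.51-fold across libraries, from 13.4 CPM in injured placebo 1 to 73.8 CPM in healthy placebo 3, and gave the highest fitted difference of any member in injured muscle, 0.58 ± 0.37 (adjusted p = 0.48). Atp5j2 (135 to 211 CPM) and Atp5l (90.7 to 157 CPM), subunits f and g, Atp5j (186 to 285 CPM), coupling factor 6 of the peripheral stalk, and Atp5e (138 to 349 CPM), the epsilon subunit of the central stalk, gave 0.13 to 0.28 there, and Atp5s, a coupling factor at 8.54 to 14.6 CPM, gave 0.21.

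Members with short and with long transcripts moved apart in some libraries. The median centred log2 level of 7 members with transcripts under 500 bases (Uqcr10, Uqcr11, Cox7a1, Cox8b, Atp5e, Atp5k and Atp5mpl) minus that of 10 members over 1500 bases was -0.47 in healthy placebo 2, 0.51 in healthy placebo 3, -0.61 in injured placebo 1 and 0.31 in injured placebo 2. In the other placebo libraries it was -0.01 (healthy placebo 1), -0.14 (healthy placebo 4), 0.06 (injured placebo 3) and -0.03 (injured placebo 4). In the inhibitor libraries the same difference lay between -0.32 (injured inhibitor 3) and 0.29 (healthy inhibitor 3). Over genes at 10 CPM or more in every library, 36 short against 5284 long ones, it ranged from -0.30 (healthy placebo 1) to 0.34 (healthy placebo 3). The members were not removed from these genes, so the 7 short members are among the 36. In every placebo library the difference over genes had the same sign as that over members, though in injured placebo 1 it was only -0.08. Among the inhibitor libraries the signs were mixed. The part of transcript length in the comparisons was not tested.

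**Figure D5:**
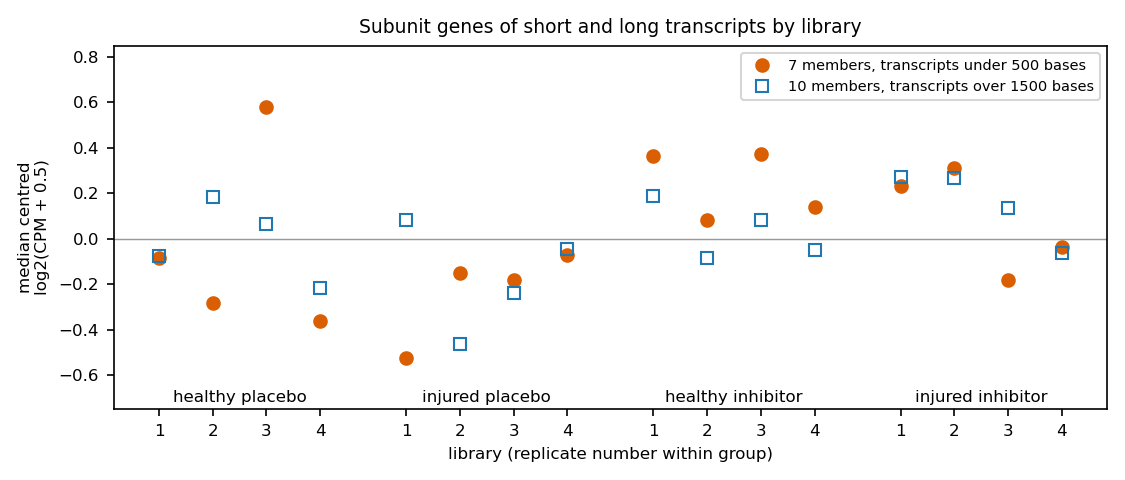
Median centred log2(CPM + 0.5) of 7 subunit genes with transcripts under 500 bases (filled circles) and of 10 with transcripts over 1500 bases (open squares) in each of 16 libraries, by group. The 2 classes part most in healthy placebo 2 and 3 and injured placebo 1. They lie within 0.05 of each other in healthy placebo 1, injured placebo 4 and injured inhibitor 1, 2 and 4.

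Other genes of the respiratory chain were read from lists written with earlier results of these data known. In injured quadriceps with inhibitor against placebo, 46.9% of all genes lay above 0 and 14.9% were at an unadjusted p under 0.05, which is the background for each count here. Of the nuclear genes of complex I 39 of 40 were higher (median 0.27, 16 at that p), as were 5 of 6 mitochondrially encoded genes of complexes III to V (0.31), among them mt-Cytb, cytochrome b of complex III, at 0.44 ± 0.17. Of 8 electron carriers and their enzymes 7 were higher (0.34), with Cycs, cytochrome c, at 0.31 ± 0.12 and Coq9, needed for ubiquinone synthesis, at 0.41 ± 0.11. Assembly factors were higher for 4 of 4 genes of complex II (0.21), 7 of 8 of complex III (0.18), 20 of 22 of complex IV (0.19) and 5 of 5 of complex V (0.19), with Cox10, which makes the haem of complex IV, at 0.50 ± 0.09 (adjusted p = 0.10, edgeR) and the copper chaperone Sco2 at 0.81 ± 0.26. Carriers for nucleotides and phosphate were higher for 7 of 9 (0.21), Slc25a4, the ADP/ATP carrier of muscle, among them at 0.34 ± 0.13. Of 14 regulators of mitochondrial genes 11 were higher (0.20), including Ppargc1a, the coactivator PGC-1 alpha, at 0.54 ± 0.17. Others were Esrra, an estrogen-related receptor, at 0.48 ± 0.14, and Perm1, a muscle regulator of mitochondrial genes, at 0.81 ± 0.19. At an unadjusted p under 0.05 by edgeR were 5 of 8 electron carriers, 4 of 9 nucleotide and phosphate carriers and 5 of 14 regulators. Only 1 of 6 mitochondrially encoded genes was. For assembly factors of complexes II, III, IV and V the counts were 0 of 4, 2 of 8, 4 of 22 and 0 of 5.

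With injury under placebo the same lists lay mostly below 0, against 48.9% of all genes: 39 of 40 genes of complex I (median -0.14), 5 of 6 mitochondrially encoded genes (-0.20), 7 of 8 electron carriers (-0.12), 7 of 9 nucleotide and phosphate carriers (-0.12) and 9 of 14 regulators (-0.11). None of these genes passed the adjusted threshold by edgeR in any comparison. Slow-fibre genes, a sign of oxidative fibres, had a median of 1.01 with injury under placebo and 0.33 with the inhibitor in injured muscle, with 10 of 10 above 0 in both. They scattered far more than the members: summed slow-fibre levels ran from 142 to 3682 CPM within injured placebo and from 254 to 3692 CPM within injured inhibitor libraries, and their part in the result was not tested. Fast-fibre genes had a median of -0.23 with injury under placebo (11 of 11 below 0) and 0.06 with the inhibitor in injured muscle (7 of 11 above 0).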

How the data were processed

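RNA from 16 mouse quadriceps, isolated with TRIzol and a column kit, was sequenced by a commercial service, per the labels' protocols. The authors deposited 1 table of expected counts per Ensembl gene. STAR, Partek and DESeq2 and the build GRCm38 (mm10) are named in the submitters' processing notes, without roles, and whether counting used strand is not given in the sources used here. Of the deposited values 33.8% were not whole, and every gene reached a count of at least 10 in some library. Symbols, lengths and coordinates came from GENCODE M21 for 17338 of 17370 genes.

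Expected counts were rounded and tested with edgeR 4.0.16 (robust quasi-likelihood, TMM scaling, filterByExpr with a minimum count of 10) in R 4.3.3, with 4 group means over all 16 libraries, 12 residual degrees of freedom and Benjamini-Hochberg adjustment over 15411 genes at 0.05. The SE is the absolute log2 difference divided by the square root of F. The SE and SD include the spread between samples, whereas the floor of 3 counts covers counting error only. The script was tested on simulated data with 200 changed genes. Scores use log2(CPM + 0.5). Figures and exact tests used Python 3.11.15, matplotlib 3.10.9 and scipy 1.17.1. Alternatives were DESeq2 1.42.0, limma 3.58.1 voom with quality weights, DESeq2 size factors, no filter, unrounded counts, blocks, only the groups compared, each library left out, and the 4 libraries high in Prg4 left out.

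The members and lists were chosen with earlier results of these data known. By the rule for naming, any member could be named, and library values are given for the subunits of complex II, the core subunits of complex III, most of complex IV, the head and c-ring genes of complex V and the member of each complex with the smallest p in each comparison. Other genes named are those of the lists and the 10 most like the members. The shared stems of the library names were read as animals, which pair the healthy and injured samples. Deviations from the group means over all genes correlated by 0.29, -0.05, -0.00 and -0.11 within the inhibitor animals and 0.53, -0.23, -0.12 and -0.58 within the placebo animals 1 to 4.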

Additional observations from a re-analysis of the deposited data

Results flagged for a closer look

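In 5 of 140 groups of 4 values, 1 library stood far from the other 3 by Dixon's 95% criterion, which compares its gap to the nearest library with the range of the group. About 1 in 20 groups is expected to do so by chance. The complex IV score of injured placebo 2 was -0.202, with the others between -0.07 and -0.05. Sdhb, the iron-sulfur subunit of complex II, was at 393 CPM in healthy placebo 2 and at 277 to 297 CPM in the other healthy placebo libraries. In healthy placebo 3, Cox5b was at 185 CPM against 86.5 to 102 CPM, and Cox6b1 at 208 CPM against 143 to 151 CPM, in the rest of the group. Atp5g1, a c-ring gene, was at 122 CPM in injured inhibitor 4 and between 159 and 165 CPM in the other 3.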

How the results depend on the processing

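The main edgeR fit called no gene in any comparison, so there was no called value that could change sign. No member was called by edgeR in any alternative fit. DESeq2 called 2 genes for injury with placebo, 1 for injury with inhibitor, 256 for the inhibitor in injured and 11 in healthy quadriceps, with 6 members in injured quadriceps, where limma voom called 1229 genes and 10 members. The cause of these differences was not tested. With the replicate number as a block, 1 gene was called for the inhibitor in injured quadriceps and the median over members was 0.28. With the animal as a block, which left 6 residual degrees of freedom, no gene was called, and the medians were -0.12 and 0.09 for injury with placebo and with inhibitor and 0.20 for their difference. With 1 library left out, edgeR called 0 to 3 genes for injury with placebo and 0 to 39 for the inhibitor in injured quadriceps, the highest without injured placebo 4 in both, and 0 to 1 for the inhibitor in healthy quadriceps (without healthy placebo 1). Some medians, which have no test, turned their sign. Without healthy placebo 3 the complex IV median was 0.02 for injury with placebo and -0.02 for the difference of the injury effects, and without healthy inhibitor 4 it was -0.02 for injury with inhibitor. For the inhibitor in healthy quadriceps, complexes II to V were at -0.09, -0.07, -0.05 and -0.07 without the libraries high in Prg4. There, complexes II, III and V turned to -0.04, -0.01 and -0.00 without healthy placebo 4, and II, IV and V to -0.03, -0.01 and -0.02 without healthy inhibitor 1. Of the single members at an unadjusted p under 0.05 in the main edgeR fit, 14 values passed the threshold only with DESeq2 or limma voom. That count leaves out Sdha and Atp5b, which limma voom called and which lay above that p. The mean log2 ratio of Cox7a1 to Cox7a2 was 1.10 when divided by transcript length. Cox6b2, with a mean count of 4.88, is limited by depth, and mean counts of 17.8 to 35.6 limit the precision of Cox6c2, Cox4i2 and Atp5g2.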
